A study of Rattus norvegicus with 20 samples.

Results

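Complex I of the mitochondrial respiratory chain was followed through its nuclear genes, whose symbols start with Nduf. Every such gene that reached 5 reads in 10 or more of the 20 rats was taken, which gave 45 of the 16605 genes kept by the same filter. The 45 members are 38 genes with subunit names (Ndufa, Ndufb, Ndufc, Ndufs and Ndufv) and 7 assembly factors (Ndufaf). A further row, Ndufa1, held 2 reads in all and was not kept. The least read member, Ndufs6, had 13 to 52 reads per rat. Ndufa13 and Ndufaf8 were not analysed here.

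The tissue was the medial prefrontal cortex (mPFC) of 1 hemisphere from male Sprague-Dawley rats, a standard outbred laboratory strain, with 1 library per rat. The LSD-treated group held 10 rats that received lysergic acid diethylamide, a psychedelic that acts at serotonin receptors, by intraperitoneal injection at 0.16 mg/kg on alternate days over 90 days. The 10 controls received sterile saline on the same schedule. The rats were 6 to 8 weeks old and weighed 180 to 200 g when treatment began, were caged singly, and had stopped treatment 3 weeks before collection according to the labels. The study's methods give a somewhat higher age and a longer interval. The treatment was used there as a model related to schizophrenia, and all animals were male. The p-values treat each rat as independent. No litter is named, so a litter shared between rats could not be taken into account.

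Complex I takes electrons from NADH, passes them along a chain of iron-sulphur clusters to ubiquinone, and pumps protons across the inner mitochondrial membrane. It is shaped like a boot, with a matrix arm that carries the redox centres and a membrane arm that pumps. Core subunits do the catalysis, accessory subunits surround and stabilise them, and assembly factors help to build the enzyme without staying in it. Part of the membrane arm is encoded by the mitochondrial genome and the rest by nuclear genes, so both genomes supply the enzyme. Neurons depend heavily on respiration, and many of their mitochondria lie in dendrites and synapses.

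Reads assigned to genes ranged from 16346629 to 25552681 in the LSD-treated rats and from 11098076 to 24201351 in the controls. Levels are given as RPM, the reads of a gene per 1000000 reads of the library after TMM normalisation, a scaling between libraries, and are not divided by gene length, so they compare rats and not genes. Cortical neuron genes were high in every rat, with the summed level of 8 neuron markers at 5995 to 7334 RPM in LSD-treated rats and 5781 to 7734 RPM in controls. One control, rat 9, stood apart. Its difference in log2 level between genes of short and long genomic span was 0.38 relative to the mean of all rats, against -0.05 to 0.17 in the other controls and -0.14 to -0.03 in the LSD-treated rats. The fits were therefore also made without that rat, and its removal is given where it ended a call or moved a value by over 1.5 times.

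In LSD-treated rats, 10 of the 45 complex I genes were down-regulated and 0 were up-regulated by edgeR's quasi-likelihood test at an adjusted p under 0.05. The share of all tested genes called lower was 8.54%, and the share called higher was 6.48%, whereas 22.2% of the complex I genes were lower. The down-regulated genes were the core subunits Ndufs7, Ndufs8 and Ndufv1, the accessory subunits Ndufa7, Ndufa11, Ndufb2, Ndufb7, Ndufb8 and Ndufb10, and the assembly factor Ndufaf3. The level fell by 10.7% for Ndufb10, the smallest decrease of the 10, and fell by 24.7% for Ndufs7. The log2 fold change was negative in 34 of the 45 members, with a median of -0.14, while the median over all 16605 genes was 0.0022. At an unadjusted p under 0.05, 20 members were lower and 1 was higher, against 16.4% and 14.4% of all genes. DESeq2 called 12 members lower and 0 higher, against 12.4% and 9.68% of all the genes it tested; the additional calls were Ndufa9 and Ndufb1. At an unadjusted p under 0.05, DESeq2 put 21 members lower and 1 higher, against 16.6% and 14.3% of all genes. In bulk tissue, fewer cells of a type and less RNA per cell cannot be told apart.

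**Figure D1:**
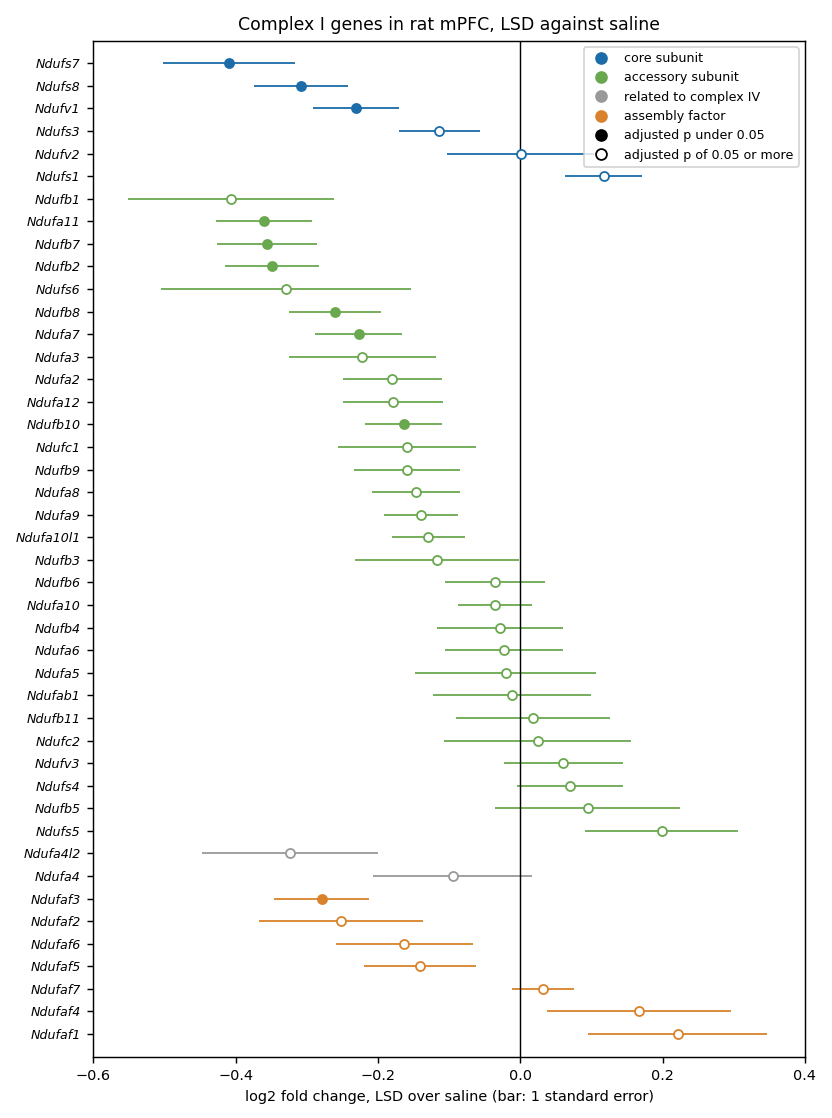
Log2 fold change, LSD-treated rats over controls, of 44 of the 45 complex I genes on the horizontal axis, with 1 standard error as bars, n = 10 rats per group. Colours give the role and filled circles an adjusted p under 0.05: the 10 filled circles all lie left of 0, and 11 of the open circles lie right of it.

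Promoter sequence is shown for 4 genes that span the range of the results: the core subunit with the lowest fold change (Ndufs7), a pair of membrane arm subunits that passed the test (Ndufa11 and Ndufb7) and the member with the highest fold change (Ndufaf1). Each line is the 200 bases before the annotated start on the gene's strand, from RefSeq on the GRCr8 build, which is not the rn6 build of the counts. They lie at chr7:10110499-10110698 (minus strand), chr9:1637414-1637613 (plus strand), chr19:41477292-41477491 (minus strand) and chr3:127104021-127104220 (minus strand). Capitals mark matches, on either strand, to 4 short motifs of factors known for driving respiratory genes or housekeeping promoters: GCATGCG for NRF1, CCGGAAG for GABPA and other ETS factors, AAGATGG for YY1, and GGGCGG for the GC box.
Ndufs7: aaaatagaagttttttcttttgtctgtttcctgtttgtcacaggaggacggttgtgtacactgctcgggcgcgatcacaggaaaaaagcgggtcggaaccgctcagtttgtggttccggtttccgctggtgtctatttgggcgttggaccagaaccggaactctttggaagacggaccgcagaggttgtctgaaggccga
Ndufa11: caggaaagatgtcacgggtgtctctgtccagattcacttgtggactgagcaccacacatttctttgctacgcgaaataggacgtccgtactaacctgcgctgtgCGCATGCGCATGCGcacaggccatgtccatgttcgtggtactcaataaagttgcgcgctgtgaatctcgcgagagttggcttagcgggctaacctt
Ndufb7: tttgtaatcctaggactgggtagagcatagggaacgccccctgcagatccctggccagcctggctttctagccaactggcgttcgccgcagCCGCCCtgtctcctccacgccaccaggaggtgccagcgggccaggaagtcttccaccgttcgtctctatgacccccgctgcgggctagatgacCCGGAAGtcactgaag
Ndufaf1: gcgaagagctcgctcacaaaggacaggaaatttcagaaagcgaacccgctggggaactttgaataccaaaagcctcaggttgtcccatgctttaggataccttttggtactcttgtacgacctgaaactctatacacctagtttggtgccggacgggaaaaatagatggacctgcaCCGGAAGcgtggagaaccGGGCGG

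The Ndufa11 stretch holds overlapping matches to GCATGCG on both strands, the first of them starting 96 bases before the start. The Ndufb7 stretch has CCGGAAG 16 bases and a GC box on the other strand 109 bases before the start. Ndufaf1, which did not pass the test and has a positive fold change, also has CCGGAAG and a GC box, whereas the Ndufs7 stretch has no match. The same stretches of the down-regulated Ndufb2 and Ndufaf3, not printed here, have no match either. Over the whole 300-base windows, which run from 250 bases before the start to 50 after it, 40 of the 45 members were found. GCATGCG was present in 12.5% of the members' windows and in 5.79% of those of 10648 kept genes, and CCGGAAG in 15.0% against 15.3%. AAGATGG was present in 22.5% against 8.07%, and GGGCGG in 20 of the 40 members' windows against 60.1% of all. Of the 10 down-regulated members, Ndufa11 had GCATGCG, Ndufb7 and Ndufs8 had CCGGAAG, Ndufb8 and Ndufs7 had AAGATGG, and Ndufb7 had GGGCGG. A match is a description of letters and not a measured binding site. The GC content of the windows had a median of 57.7% in the down-regulated members and 56.7% in the other members.

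Core subunits carry the flavin and the iron-sulphur clusters of the matrix arm. Of the 7, 3 were down-regulated and 0 up-regulated, against 8.54% and 6.48% of all genes, with a median log2 fold change of -0.11. Ndufs7, which carries the last iron-sulphur cluster before ubiquinone, had the lowest fold change of all members. Its level was 127 to 169 RPM (median 148) in LSD-treated rats and 142 to 240 RPM (median 199) in controls. All 10 LSD-treated rats lay below the median of the controls, 3 of them below the lowest control, and 8 controls lay above the highest LSD-treated rat. The log2 fold change was -0.41 (SE 0.093, adjusted p = 0.00854).

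Ndufs8, which carries iron-sulphur clusters next to Ndufs7, ranged from 84.2 to 97.2 RPM (median 88.0) in LSD-treated rats and from 85.2 to 140 RPM (median 113) in controls. Only 1 LSD-treated rat lay below the lowest control, while 8 controls exceeded every LSD-treated rat. Its log2 fold change was -0.31 (SE 0.066, adjusted p = 0.00697). Ndufv1 binds NADH and the flavin that first accepts its electrons. It ranged from 222 to 261 RPM (median 227) with LSD and from 218 to 315 RPM (median 273) with saline. No LSD-treated rat fell below the lowest control, although all 10 lay below the controls' median, and the log2 fold change was -0.23 (SE 0.060, adjusted p = 0.0159).

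Core subunits that did not pass the test included Ndufs1, Ndufs3 and Ndufv2. Ndufs1, the large iron-sulphur subunit, was at 127 to 159 RPM (median 138) with LSD and 110 to 150 RPM (median 129) with saline. It was above the controls' median in 9 of 10 LSD-treated rats, with a log2 fold change of 0.12 (SE 0.054, adjusted p = 0.144). Ndufs3, a scaffold of the matrix arm, was at 72.5 to 83.8 RPM (median 79.3) against 71.4 to 109 RPM (median 84.2), with a log2 change of -0.11 (adjusted p = 0.177), or -0.07 without control 9. Ndufv2, which carries an iron-sulphur cluster beside Ndufv1, was at 64.3 to 96.9 RPM (median 70.1) against 64.0 to 107 RPM (median 70.1), and its log2 fold change was 0.00 (SE 0.10, adjusted p = 0.998). The sign of the Ndufv2 value changed with the scaling and with the rat left out, and the value was 0.07 without control 9.

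Accessory subunits numbered 29, of which 6 were down-regulated and 0 up-regulated, with a median log2 fold change of -0.14. By position in the enzyme, 4 of 16 matrix arm subunits and 5 of 18 membrane arm subunits were down-regulated, with the core subunits counted in the matrix arm. Beside these counts, 8.54% of all genes were called lower and 6.48% higher. Ndufab1, the mitochondrial acyl carrier protein, is bound in both arms, and Ndufa10l1 was assigned to neither. Neither passed the test.

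Ndufb2, a small subunit of the membrane arm, was at 46.7 to 59.2 RPM (median 53.0) in LSD-treated rats and 56.0 to 82.7 RPM (median 67.7) in controls. Only 1 control lay within the range of the LSD-treated rats, 9 lay above it, and the log2 fold change was -0.35 (SE 0.066, adjusted p = 0.00441). Ndufa11, which sits in the membrane arm where complex I meets its partners in supercomplexes, was at 59.1 to 72.8 RPM (median 66.1) against 72.5 to 115 RPM (median 81.7). The groups nearly separated, with 9 LSD-treated rats below the lowest control and 9 controls above the highest LSD-treated rat. Its log2 fold change was -0.36 (SE 0.068, adjusted p = 0.00447). The highest control value of Ndufa11 came from control rat 9, and without that rat the log2 fold change was -0.30 (adjusted p = 0.00412).

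Ndufb7, on the side of the membrane arm that faces the intermembrane space, was at 84.1 to 101 RPM (median 91.9) with LSD and 96.5 to 150 RPM (median 117) with saline. Here 7 LSD-treated rats were below the lowest control, and the log2 fold change was -0.36 (SE 0.070, adjusted p = 0.00565). Ndufb8, a membrane arm subunit often used as a protein marker of assembled complex I, was at 158 to 188 RPM (median 179) against 178 to 270 RPM (median 210). In 8 controls it exceeded every LSD-treated rat, and the log2 fold change was -0.26 (SE 0.065, adjusted p = 0.0120).

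Ndufa7, an accessory subunit of the matrix arm, was at 34.2 to 42.1 RPM (median 38.4) with LSD and 38.1 to 58.1 RPM (median 42.8) with saline, with a log2 fold change of -0.23 (SE 0.062, adjusted p = 0.0188). Ndufa7 lost its call under scaling by total counts and with every library drawn down to the smallest, with an adjusted p of at most 0.0721. Ndufb10, another subunit facing the intermembrane space, was at 97.7 to 110 RPM (median 102) against 101 to 149 RPM (median 114). Its log2 fold change of -0.16 (SE 0.054, adjusted p = 0.0428) was the least secure of the 10, since it passed the test in 12 of 29 alternatives. The highest control value of Ndufb10 was again that of rat 9.

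**Figure D2:**
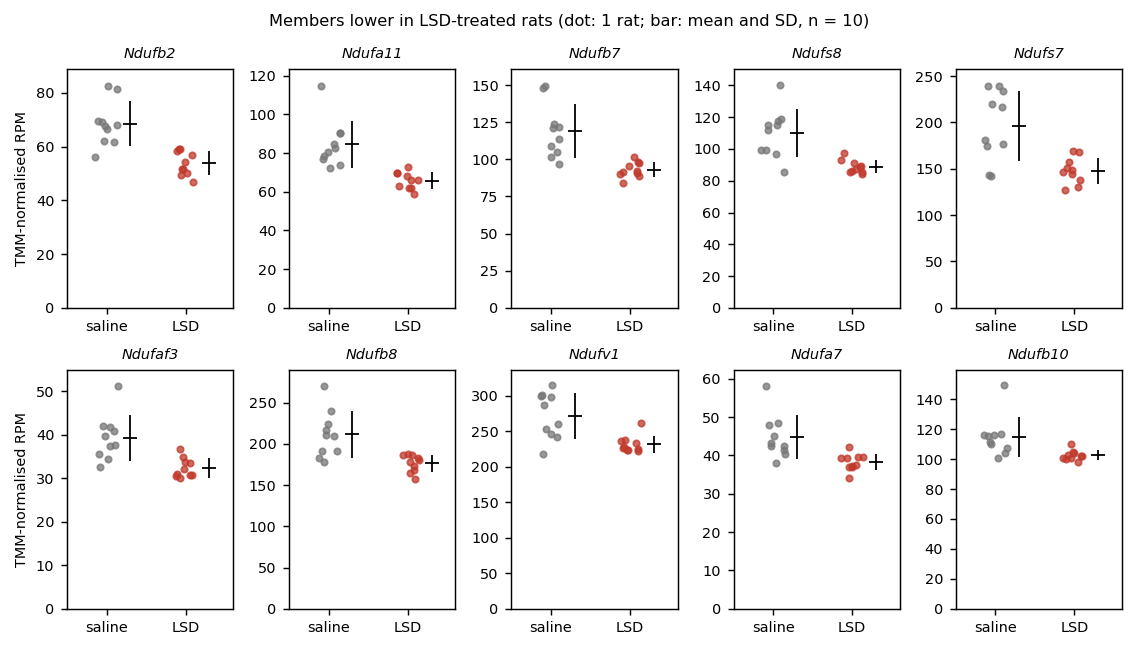
Levels of the 10 down-regulated complex I genes in TMM-normalised RPM (vertical axis, from 0), with 1 dot per rat and the mean with SD beside it (n = 10 per group). In every panel all 10 LSD-treated rats lie below the median of the controls, for example at 59.1 to 72.8 RPM against a control range of 72.5 to 115 RPM for Ndufa11. The genes shown were selected by this same contrast, and some members that did not pass, such as Ndufaf6, also have all 10 below.

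Some accessory subunits that did not pass the test are named here because of their values. Ndufb1, in the membrane arm, had a log2 fold change of -0.41 (SE 0.14, adjusted p = 0.0586), as low as that of Ndufs7 but with a wider spread. It was called lower in 6 of 29 alternatives, among them DESeq2 (adjusted p = 0.0292). Its level ran from 8.61 to 17.1 RPM (median 12.8) in LSD-treated rats and from 13.0 to 21.4 RPM (median 15.8) in controls, and 5 LSD-treated rats were below every control. Ndufs5, in the membrane arm, was above the controls' median in 10 of 10 LSD-treated rats, at 17.9 to 25.7 RPM (median 20.4) against 14.1 to 26.6 RPM (median 17.8), with a log2 fold change of 0.20 (SE 0.11, adjusted p = 0.217). Ndufs6, a zinc-binding subunit, had a log2 change of -0.33 (adjusted p = 0.209) on few reads. All 14 genes with Ndufa names had negative fold changes, of which 2 passed the test. Of all genes, 49.6% had negative fold changes and 8.54% were called lower. The count of negative values among the 14 was 10 under scaling by total counts. It was 11 with the gene span offsets described below, and also 11 without control 9. Among these names are Ndufa4, now known as a subunit of cytochrome c oxidase, and its relative Ndufa4l2. Neither passed, with log2 fold changes of -0.09 (adjusted p = 0.607) and -0.32 (adjusted p = 0.0777), or -0.03 and -0.21 without control 9.

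Some of these rows are uncertain as to the gene. RefSeq lists the symbol Ndufs6 as an older name of a pseudogene, and the names of Ndufa10 and Ndufa10l1 have been exchanged between annotations. Reads can also be split between near-identical copies. RefSeq pseudogenes were counted only where the symbol is the member's name with the suffix -ps, so copies under other symbols are missed. For 19 of the 45 members at least 1 such pseudogene is listed, with up to 7 for a single member. Of the 10 down-regulated members, 2 (Ndufa7 and Ndufb10) are among these 19.

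Assembly factors were compared with the subunits by counts and medians. Of the 7, 1 was down-regulated and 0 up-regulated, against 9 and 0 of the 38 genes with subunit names. The shares called lower were thus 14.3% and 23.7%, beside 8.54% of all genes, and 6.48% of all genes were called higher. The median log2 fold change was -0.14 among the assembly factors and -0.13 among the subunits, and negative values were found in 4 of 7 and 30 of 38. With the gene span offsets these medians were -0.16 and -0.07, and without control 9 they were -0.08 and -0.09. In each rat, the mean log2(RPM + 1) over subunits minus that over assembly factors was 1.85 ± 0.05 (SD, n = 10) with LSD and 1.92 ± 0.08 (SD, n = 10) with saline. The difference between the classes was not tested.

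Ndufaf3 joins Ndufaf4 in the early assembly of the part of the matrix arm that binds ubiquinone. Ndufaf3 was at 29.9 to 36.6 RPM (median 31.6) in LSD-treated rats and 32.6 to 51.1 RPM (median 38.6) in controls, with 6 LSD-treated rats below the lowest control. Its log2 fold change was -0.28 (SE 0.066, adjusted p = 0.0102). Its partner Ndufaf4 was at 5.92 to 9.28 RPM (median 7.71) against 4.11 to 9.21 RPM (median 6.85), and its log2 fold change was 0.17 (SE 0.13, adjusted p = 0.407). The fold changes of the partners thus had opposite signs, of which the positive one was within the spread between rats.

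Ndufaf1, which helps to build the membrane arm, had the highest fold change of all members, at 7.72 to 11.5 RPM (median 9.70) with LSD and 4.47 to 11.6 RPM (median 8.68) with saline. The range of the LSD-treated rats lay within that of the controls, and the log2 fold change of 0.22 (SE 0.13, adjusted p = 0.240) did not pass. Ndufaf2, a relative of Ndufa12 that acts late in assembly, was at 3.12 to 4.88 RPM (median 3.70) against 3.62 to 5.90 RPM (median 4.73), with a log2 fold change of -0.25 (SE 0.12, adjusted p = 0.141). Ndufaf5, which hydroxylates Ndufs7, was at 20.2 to 26.9 RPM (median 23.1) against 21.3 to 34.2 RPM (median 25.1), with a log2 change of -0.14 (adjusted p = 0.233), or -0.08 without control 9.

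Ndufaf6, a factor needed early in assembly, was at 7.57 to 10.3 RPM (median 8.87) with LSD and 7.79 to 13.3 RPM (median 10.7) with saline. It lay below the controls' median in 10 of 10 LSD-treated rats, but its log2 fold change of -0.16 (adjusted p = 0.260) did not pass. Ndufaf7, a methyltransferase of the matrix, showed little spread, at 26.7 to 30.8 RPM (median 28.5) against 26.1 to 30.3 RPM (median 27.1), with a log2 fold change of 0.03 (SE 0.044, adjusted p = 0.668).

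The members did not move as 1 block across rats. The count of members above their own median over the 20 rats was 15, 5, 11, 6, 6 and 11 of 45 in LSD-treated rats 1 to 6. It was 33, 28, 30 and 33 in LSD-treated rats 7 to 10. In controls 1 to 10 it was 22, 42, 18, 14, 29, 39, 18, 29, 45 and 16. LSD-treated rats 7 to 10 were thus as high as many controls over all members. Among the 35 members that did not pass the test, these 4 rats had 28 to 32 above the median, against 4 to 11 in LSD-treated rats 1 to 6 and 5 to 35 in controls. Among the 10 down-regulated members, which this contrast itself selected, the count was 0 to 2 in LSD-treated rats 2 to 10 and 6 in rat 1, against 7 to 10 in controls 1 to 9 and 2 in control 10.

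LSD-treated rats 7 to 10 also had the most reads of their group, from 22770382 to 25552681, against 16346629 to 20374594 in rats 1 to 6. The part of depth in their levels was not tested. With every library drawn down to the smallest, 8 of the 10 members were still called lower and 0 members higher, against 6.74% and 5.39% of all genes. In control 9, all 45 members lay above their median. Without control 9, 10 members were called lower and 0 higher, against 6.64% and 5.2% of all genes. Negative fold changes were then found in 29 of the 45 members, with a median of -0.09. Without control 2, which had 42 of 45 members above the median, 11 were called lower and 2 higher, against 11.2% and 10.1% of all genes. The 2 that became higher were Ndufs1 (adjusted p = 0.0425) and Ndufs5 (adjusted p = 0.0367).

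**Figure D3:**
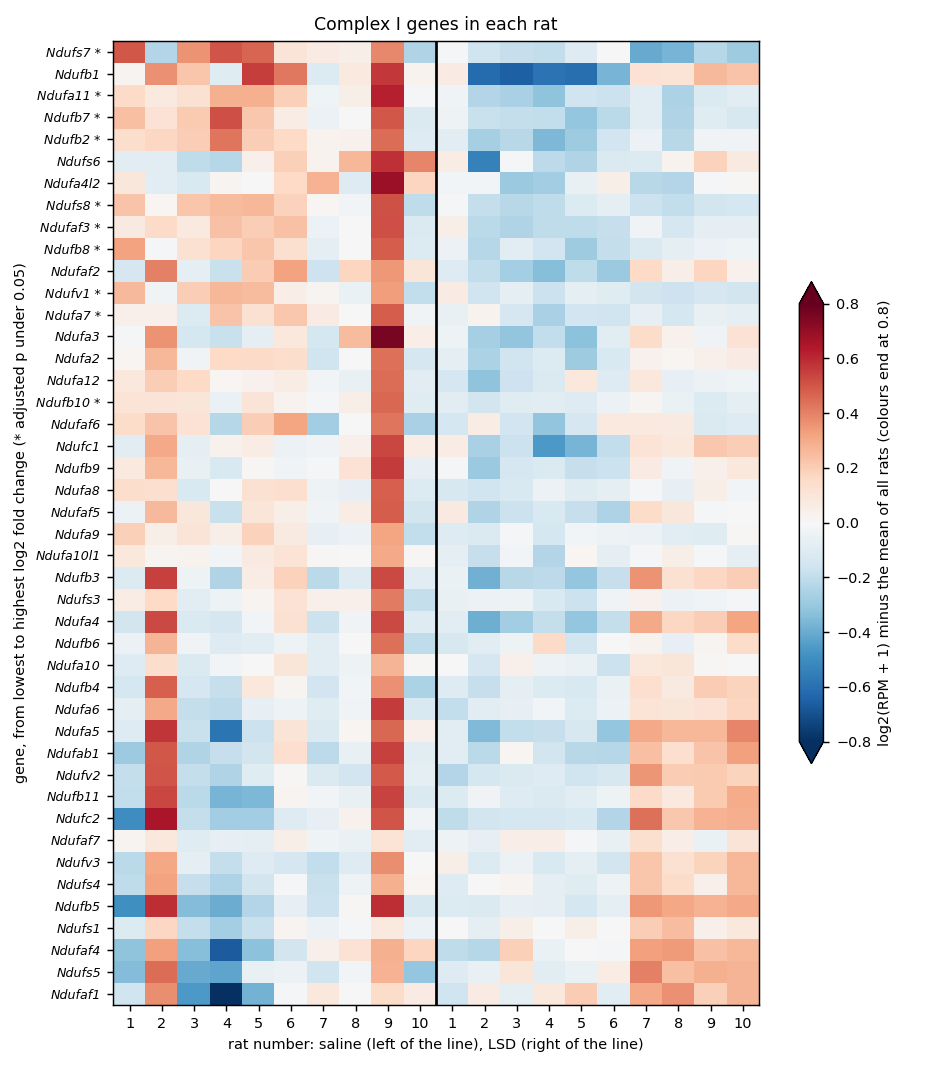
Levels of 44 of the 45 complex I genes (rows, from the lowest to the highest log2 fold change) in each rat (columns, controls left of the line and LSD-treated rats right of it), as log2(RPM + 1) minus the mean of all 20 rats; colours end at 0.8 in either direction. Control 9 is above the mean in almost every row, and LSD-treated rats 7 to 10 are above it in the lower rows but below it for most of the starred genes.

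Complex I genes are short in the genome, and fold changes in these libraries followed gene span. The span of a gene, from start to end in the RefSeq annotation, had a median of 7637 bases among the members against 24514 bases among all kept genes, and 38 of the 45 members were below the latter. The 10 down-regulated members had a median span of 4699 bases and the others 9156 bases. Across 14929 kept genes with a span, Spearman's rho between span and log2 fold change was 0.36. These genes share the 20 libraries and are not independent.

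A fit with an offset for each rat's smooth trend over span brought that rho to 0.0553. In it, 8 members remained lower and 0 higher, against 7.29% and 3.86% of all genes tested. Ndufs7 was at -0.34 (adjusted p = 0.0157), Ndufb2 at -0.28 (adjusted p = 0.00779), Ndufa11 at -0.27 (adjusted p = 0.00737) and Ndufaf3 at -0.19 (adjusted p = 0.0294) on the log2 scale. Ndufb10, at -0.07 (adjusted p = 0.313), and Ndufv1, at -0.15 (adjusted p = 0.0518), no longer passed. The median log2 fold change of the members was -0.07, and 30 of 45 were negative. Scaling by total counts moved the median of all genes to 0.05, and 8 members were then lower and 0 higher, against 5.17% and 9.06% of all genes.

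**Figure D4:**
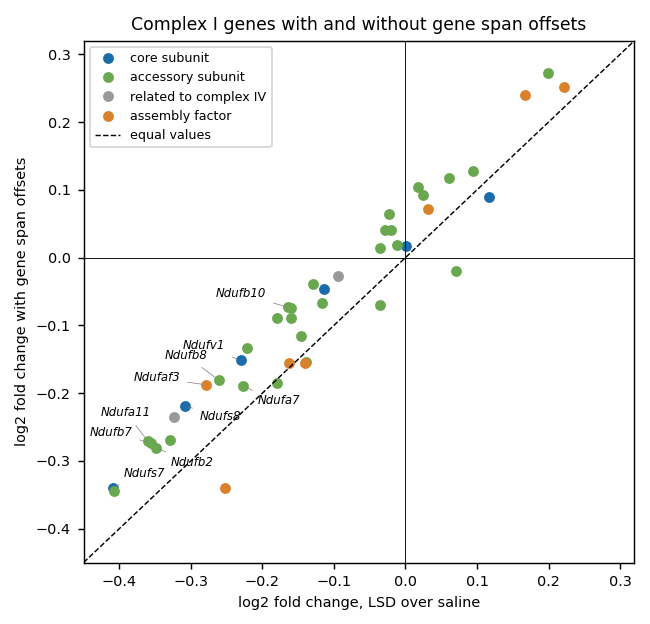
Log2 fold change of 44 of the 45 complex I genes, LSD-treated rats over controls (horizontal axis), against the value from the fit with gene span offsets (vertical axis); the dashed line marks equal values and the 10 down-regulated genes are named. Most points lie above the line, closer to 0 on the vertical axis for the named genes, and Ndufs7 stays at -0.34.

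The subunits encoded by the mitochondrial genome, which form the core of the membrane arm, did not pass the test in either direction. Of the 7, 0 were lower and 0 higher, against 8.54% and 6.48% of all genes. Their log2 fold changes ran from -0.06 for ND2 to 0.34 for ND4L, with adjusted p-values from 0.346 to 0.997. Without control 9, 0 of the 7 had a negative value, against 2 in the main fit, so the sign of ND2 changed. Libraries were made from poly(A)-selected RNA, and the summed level of these 7 genes varied widely, from 7600 to 10786 RPM in LSD-treated rats and from 4874 to 12780 RPM in controls.

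Assembly factors outside the Nduf names were present as 12 genes, of which 1 was up-regulated and 0 were down-regulated. Of all genes, 6.48% were up-regulated and 8.54% down-regulated. Foxred1, an oxidoreductase needed for assembly, was at 24.5 to 36.4 RPM (median 30.5) with LSD and 22.7 to 30.4 RPM (median 25.3) with saline. It was above the controls' median in 9 of 10 LSD-treated rats, with a log2 fold change of 0.20 (SE 0.067, adjusted p = 0.0421). The call held in 12 of 29 alternatives, and not without control 9 (adjusted p = 0.0663). The partners of Ndufaf1 in assembly of the membrane arm, Acad9, Ecsit and Tmem126b, did not pass, with log2 fold changes of 0.05, -0.11 and -0.04.

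Of 12 genes for mitochondrial transcription and biogenesis, 2 were down-regulated and 1 was up-regulated, against 8.54% and 6.48% of all genes. Ppargc1a, the coactivator that drives mitochondrial biogenesis, was at 27.9 to 40.02 RPM (median 37.1) in LSD-treated rats and 22.3 to 34.7 RPM (median 27.3) in controls. It was above the controls' median in 10 of 10 LSD-treated rats, and its log2 fold change of 0.37 (SE 0.072, adjusted p = 0.00510) was called in all 29 alternatives. Nrf1, a transcription factor for many respiratory genes, was at 17.9 to 21.4 RPM (median 19.5) against 20.1 to 24.5 RPM (median 21.8), with 7 LSD-treated rats below the lowest control. The log2 fold change of Nrf1 was -0.17 (SE 0.050, adjusted p = 0.0281), called in 18 of 29 alternatives.

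Esrra, a nuclear receptor that works with Ppargc1a, was at 48.5 to 60.7 RPM (median 53.6) with LSD and 51.5 to 72.2 RPM (median 61.1) with saline, with a log2 fold change of -0.19 (SE 0.060, adjusted p = 0.0402), called in 11 of 29 alternatives. Gabpa, an ETS factor of respiratory promoters, was at 10.3 to 16.2 RPM (median 12.0) against 9.14 to 14.03 RPM (median 11.2), and its log2 fold change of 0.17 (adjusted p = 0.229) did not pass. Tfam, which packages and transcribes the mitochondrial genome, was at 16.0 to 21.2 RPM (median 18.2) against 15.5 to 22.6 RPM (median 17.8), with a log2 change of 0.03 (adjusted p = 0.791), or 0.06 without control 9. Ppargc1a thus rose where Nrf1 and Esrra fell. Neither Nrf1 nor Esrra passed under scaling by total counts, and Esrra did not pass without control 9 (adjusted p = 0.0612).

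**Figure D5:**
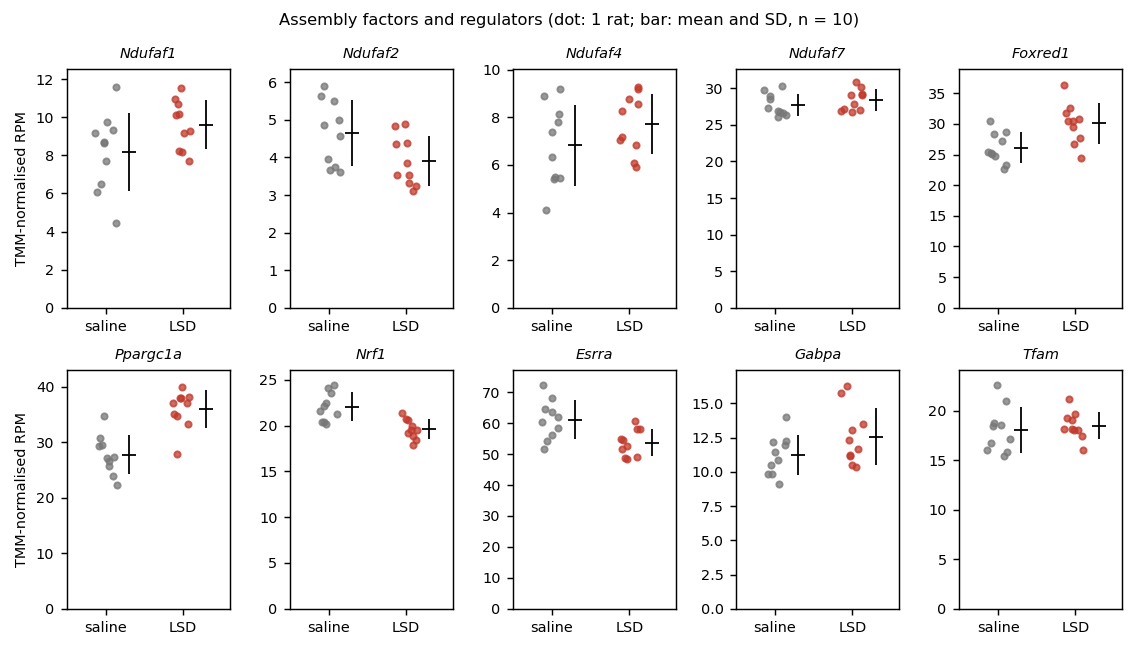
Levels in TMM-normalised RPM (vertical axis, from 0) of 4 assembly factors named Ndufaf, of Foxred1 and of 5 regulators of mitochondrial genes, with 1 dot per rat and the mean with SD (n = 10 per group). Ppargc1a was at a median of 37.1 RPM in LSD-treated rats and 27.3 RPM in controls, while the LSD-treated rats of Ndufaf1 and Tfam lie within the range of the controls.

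For comparison, 12 of 28 nuclear genes of complexes II, III and IV and 5 of 16 ATP synthase genes were down-regulated, and 0 of either group were up-regulated. The shares over all genes were 8.54% and 6.48%. The median log2 fold changes of the 2 groups were -0.15 and -0.12, beside -0.14 for the complex I genes. With span offsets, the counts were 9 of 28 and 3 of 16 lower, and 0 higher, and the medians were -0.09 and -0.06, beside -0.07. Without control 9 the medians were -0.12 and -0.07, beside -0.09. The difference between the complexes was not tested.

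Markers of cell types and neighbouring tissue moved with the groups in part. All 5 striatal neuron markers had negative fold changes, with a median of -0.80, or -0.58 without control 9, and adjusted p-values from 0.0671 to 0.0872. Their summed level was 101 to 207 RPM (median 125) with LSD and 116 to 317 RPM (median 155) with saline. All 5 oligodendrocyte markers were also negative, with a median of -0.33 and summed levels of 1936 to 4834 RPM and 1886 to 6305 RPM, and none passed. Of 3 blood markers, 1 was down-regulated (Hbb, log2 fold change -0.50, adjusted p = 0.0434), with summed levels of 86.4 to 213 RPM against 135 to 363 RPM. Of 8 neuron markers, 1 was up-regulated (Gad2, log2 fold change 0.23, adjusted p = 0.0369). The shares of all genes called lower and higher were 8.54% and 6.48%. With span offsets, 1 neuron marker was lower and 0 were higher, and with reads drawn down 0 passed in either direction. No blood marker passed with span offsets or under scaling by total counts. None of the astrocyte (5), precursor (2), microglial (5), endothelial (4) or choroid plexus (2) markers passed. The choroid plexus sum was at most 3.90 RPM in any rat. The part of these cell types in the complex I values was not tested.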

How the data were processed

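RNA from the mPFC of 20 rats, 10 per group, was sequenced after poly(A) selection. The authors used TrimGalore for trimming, Hisat2 for alignment to rn6 and HTSeq-count for counting. Versions, annotation and strand setting are not given in the sources used here. They deposited raw counts, with no normalisation or filter. Another 5 rows without a gene name, holding 25.46 to 28.96% of the entries, were left out.

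A gene was kept if it reached 5 reads in 10 or more rats, as in the study's methods. The main test was edgeR 4.0.16 in R 4.3.3 (TMM, quasi-likelihood, group as the only term), with Benjamini-Hochberg adjustment over all 16605 genes and a threshold of 0.05. It was also run on simulated counts in which each gene was drawn on its own, a simpler setting than these libraries. Alternatives were DESeq2 1.42.0, median-ratio and total-count scaling, no filter, a filter at 1 RPM in 10 or more rats, the replicate number as a block, offsets for gene span (50 bins, smoothed over 5; alone and with the block), reads drawn down to the smallest library, and each rat left out. Levels, promoters and figures used Python 3.11.15.

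The members, the lists and the rule for named genes were chosen with earlier results of these data known. A single member is counted but not reported by name here. Named were members past the threshold, the other core subunits, assembly factors and the extreme fold changes, and from related lists the genes past the threshold with Ppargc1a, Nrf1, Gabpa and Tfam. Ndufb1, Ndufs5, Ndufs6, Ndufa4, Ndufa4l2, Ndufa10l1, Ndufab1, ND2, ND4L, Acad9, Ecsit and Tmem126b were named after their values were seen. Role and arm of each subunit are from general knowledge.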

Additional observations from a re-analysis of the deposited data

Results flagged for a closer look

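Each member was examined in each group for a rat whose log2 level stood apart from the other 9 by Dixon's criterion. The criterion was met in 7 of 90 groups. Its chance rate of about 1 in 20 is for independent groups, whereas these 90 share the same 20 libraries, so the count cannot be set against it. Of the 7, 6 were the highest control, rat 9, which was also the library with the largest difference between short-span and long-span genes. Its levels were 27.3 RPM for Ndufa10l1 (next highest control 23.8), 115 RPM for Ndufa11 (90.6), 22.7 RPM for Ndufa12 (18.9), 5.09 RPM for Ndufa4l2 (3.59), 183 RPM for Ndufa8 (145) and 149 RPM for Ndufb10 (117). In LSD-treated rat 1, Ndufv1 was at 261 RPM, against 237 RPM in the next highest LSD-treated rat. Without control 9, the log2 fold change of Ndufa11 was -0.30 (adjusted p = 0.00412) and that of Ndufb10 was -0.11 (adjusted p = 0.0466). The cause of these values was not tested.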

How the results depend on the processing

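Of the 10 down-regulated members, all 10 kept a negative fold change in the 29 alternatives, and 6 (Ndufa11, Ndufb2, Ndufb7, Ndufb8, Ndufs7 and Ndufs8) were called in each of them. The count of members called lower was 8 to 12 in the 9 alternatives that kept all rats and 9 to 13 with 1 rat left out. The share of all genes called lower also moved, for example 5.17% with total counts and 12.4% with DESeq2. The count of members called higher was 0 in all alternatives except without control 2, so that it was 0 to 2 with 1 rat left out.

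Over all genes, 1418 were lower and 1076 higher. Total counts gave 858 lower, no filter gave 836 lower and span offsets gave 577 higher. With 1 rat left out the counts were 907 to 1867 lower and 659 to 1681 higher. The lowest of these counts, 907 lower and 659 higher, came without LSD-treated rat 8, and without control 4 there were 705 higher. Lower genes made up 56.9% of all calls, against 36.3% with total counts, 46.5% without a filter and 65.3% with span offsets. The log2 fold change of Ndufv2 turned to -1.9e-05 with median-ratio factors, to -0.0023 with reads drawn down, and to between -0.037 and 0.070 with 1 rat left out. The cause was not tested.

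The replicate number as a block gave 9 members lower, against 9.67% of all genes (8.16% higher). Together with span offsets it gave 8 lower, against 8.69% of all genes (5.27% higher), and Ndufaf3 had an adjusted p of 0.0510. The labels do not say that a number marks a shared batch. Of 10 same-numbered pairs, 6 had correlated deviations above 0.1 (r from -0.259 to 0.467). Only 1 LSD-treated rat correlated best with the control of its own number. Whether a number marks a shared batch was not tested.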
